A study of Mus musculus with 6 samples.

Results

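The genes described here are the standard, constitutively expressed parts of the mouse proteasome together with the activators and assembly helpers that share their naming. A gene was taken where the deposited table gave it as protein-coding and its symbol began with Psma, Psmb, Psmc, Psmd or Psme followed by a digit. The interferon-inducible catalytic subunits Psmb8, Psmb9 and Psmb10 were left out by the same rule. It found 42 genes among the 47729 listed, of which 21979 are protein-coding. In all, 49 symbols matched, of which 3 were the inducible subunits and 4 were pseudogenes. Among the 42, Psmc3ip matched by name but encodes a meiotic recombination factor and no part of the proteasome. It is described apart but kept in all counts over the whole set, as are the activators and assembly helpers.

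RNA sequencing compared 2 mouse mammary carcinoma cell lines, 4T1 and 4TO7, with 3 libraries each. The labels give both as BALB/c cells from a spontaneous tumor, kept in DMEM with 10% fetal bovine serum and given no treatment, and name no introduced gene or deletion in either. As background, both belong to a family of sister lines from the same mouse tumor, of which 4T1 spreads and grows out at distant sites on its own, while 4TO7 reaches distant organs but rarely grows out there. Each arm is a single line, so every difference below is between these lines only. The labels speak of triplicates without saying that they came from separate cultures, so p-values measure only the spread between these libraries, which may be technical.

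The full proteasome is the machine that degrades proteins tagged with ubiquitin. Its 20S core is a barrel of alpha and beta rings that keeps the protein-cutting sites of its catalytic beta subunits on the inside. The 19S regulatory particle docks on the ends of the core, where its base unfolds the substrate with a ring of ATPases and its lid removes the ubiquitin chain. Other caps, PA28 and PA200, can take the place of the 19S particle. When proteasome activity runs short, the membrane-bound transcription factor NRF1, product of Nfe2l1, raises transcription of most subunit genes together, while interferon brings in the inducible catalytic subunits and PA28 alpha and beta.

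The recovered depth was 33605566 to 39072639 reads per library. Values are normalised counts, that is, read counts divided by the authors' size factor for the library, and were tested with limma as log2(value + 1) over the 14276 genes whose value reached 10 in 3 or more of the 6 libraries. Adjusted p-values below are from that fit, Benjamini-Hochberg adjusted over all genes tested, with a threshold of 0.05, and fold changes are 4T1 minus 4TO7. Of all genes tested, 25.1% passed as higher in 4T1 and 23.9% as higher in 4TO7, and the median log2 fold change was 0.03. All 7 epithelial markers checked were higher in 4T1. In 4TO7, Krt8 and Krt18 remained well expressed while Cdh1, the gene of E-cadherin, lay between 139 and 221. The 6 leukocyte markers summed to 229, 318 and 435 in 4T1 and 91.7, 107 and 156 in 4TO7. Nearly all of this was Cd68, which was higher in 4T1 (1.44 ± 0.31; adjusted p = 0.00534), while Ptprc had 12 reads over the 3 libraries of 4T1 and 1 over those of 4TO7, Itgam 1 read in 4TO7 replicate 2, and Cd3e and Adgre1 0 reads in every library. The part of this marker sum in the results below was not tested. Endothelial markers summed to at most 18.2. The 6 stromal markers were carried by Pdgfra, summing to between 589.9 and 1369 in 4T1 and between 1719 and 7496 in 4TO7, with Col3a1 at 0. Within 4TO7, replicate 2 stood apart from replicates 1 and 3, which touches many of the values below. Of 10 interferon-response genes checked, 7 were higher in 4TO7, replicate 2 was the lowest 4TO7 library for all 10, and their sum was 2389 there against 6467 and 5781.

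Proteasome subunit transcripts were on the whole more abundant in 4T1 than in 4TO7. Of the 42 genes, 40 passed the low-value filter, and 23 of these were higher in 4T1, against 25.1% of all genes tested. A single one, Psmd10, was higher in 4TO7, and 16 did not pass the test. The log2 fold change was positive for 38 of the 40 and ranged from -0.66 to 1.35 with a median of 0.54. Among the 6890 genes with a mean of at least 1000 normalised counts, a level that most subunits exceed, 28.4% passed as higher in 4T1, and the median was 0.10. All 3 values of 4T1 lay above all 3 values of 4TO7 for 25 of the 40 genes, against 29.8% of all genes, and the reverse held for 1, against 28.7%. Scaling all libraries to equal totals moved the median of all genes by -0.13, left 33 of the 40 fold changes positive and lowered the number higher in 4T1 to 18. In bulk RNA, fewer cells expressing a gene and less of its RNA per cell cannot be told apart. The number higher in 4T1 was 14 without 4TO7 replicate 3 and 30 without 4TO7 replicate 2. On recovered reads, edgeR put 19 of the 40 higher in 4T1 and 1 higher in 4TO7, against 23.4% and 25.5% of all genes, and DESeq2 put 24 and 1, against 25.5% and 25.7%. The authors' deposited table, tested on its own terms, put 24 of the 40 under an adjusted p of 0.05 as higher in 4T1 and 1 as higher in 4TO7, against 19.4% and 19.7% of its 19556 genes with an adjusted p.

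**Figure D1:**
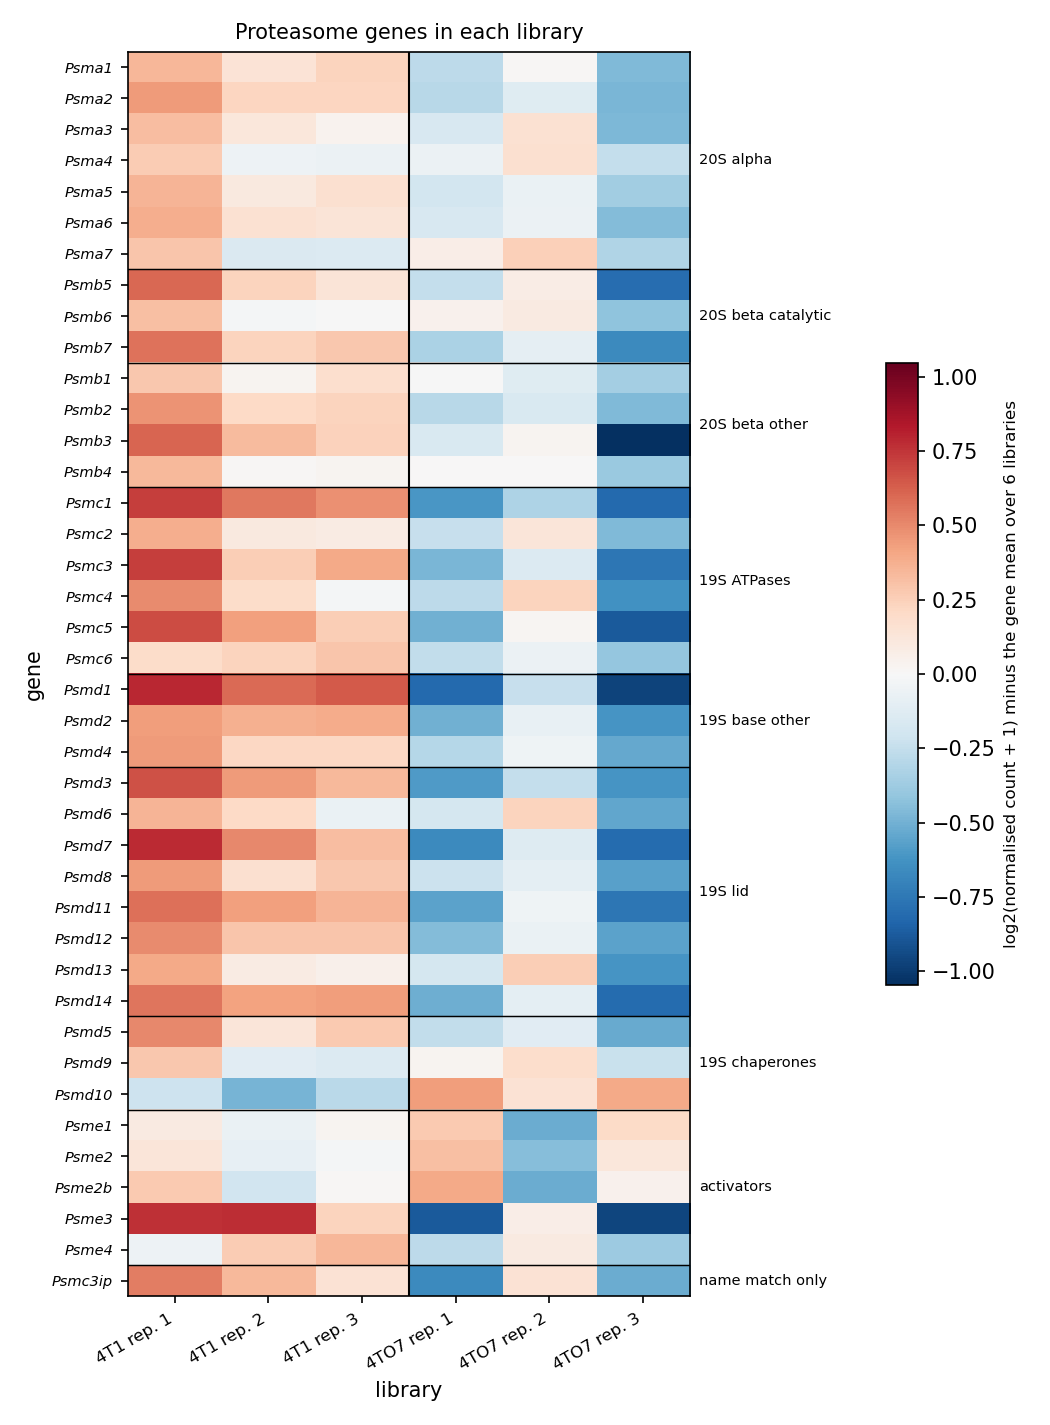
Each row is 1 of the 40 genes tested, Psmc3ip included, and each column 1 library. Color gives log2(normalised count + 1) minus the gene's mean over the 6 libraries, red above and blue below it, with genes grouped by role. 4T1 replicate 1 is the highest of its line for 37 genes and 4TO7 replicate 2 the highest of its line for 35, while Psmd10, Psme1, Psme2 and Psme2b depart from the common pattern.

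Because so many subunit genes moved together, their promoters were searched for shared letters. RefSeq windows of the 250 bases before an annotated start (GRCm38.p6) were found for 35 of the 42 genes, 38 windows in all. No window was found for Psma8, Psmb1, or for Psmb2, Psmb7, Psmc3, Psmd3 and Psmd7, the last named all higher in 4T1 from Psmb2 on. The 4 printed here, 5′ to 3′ on the gene's strand, belong to a 19S scaffold (Psmd2), the 19S deubiquitinase (Psmd14) and a nuclear activator (Psme3), all higher in 4T1, and the core subunit Psma7, whose fold change was nearest to 0. They were chosen after the values were seen, among genes whose window ends before the annotated transcript. Capitals mark CGGAAG, the core letters bound by ETS-family factors, and CCAAT, the box bound by NF-Y, each on either strand, so that CTTCCG and ATTGG are the same motifs read on the other strand.
Psmd2, chr16:20651402-20651651, plus strand: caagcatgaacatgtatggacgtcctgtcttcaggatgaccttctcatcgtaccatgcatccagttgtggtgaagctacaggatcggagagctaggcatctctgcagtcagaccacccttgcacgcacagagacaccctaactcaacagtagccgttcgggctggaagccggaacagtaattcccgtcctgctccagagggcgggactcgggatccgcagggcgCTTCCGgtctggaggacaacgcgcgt
Psmd14, chr2:61711444-61711693, plus strand: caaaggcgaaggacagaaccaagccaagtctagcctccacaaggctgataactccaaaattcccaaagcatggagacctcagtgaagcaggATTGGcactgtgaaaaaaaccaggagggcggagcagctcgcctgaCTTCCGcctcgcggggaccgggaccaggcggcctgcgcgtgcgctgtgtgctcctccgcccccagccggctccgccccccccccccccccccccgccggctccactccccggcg
Psme3, chr11:101315963-101316212, plus strand: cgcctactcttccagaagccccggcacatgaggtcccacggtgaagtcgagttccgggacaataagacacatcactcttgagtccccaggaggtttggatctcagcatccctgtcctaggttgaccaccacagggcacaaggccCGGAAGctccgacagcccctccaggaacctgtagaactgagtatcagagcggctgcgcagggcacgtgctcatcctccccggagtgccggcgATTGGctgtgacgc
Psma7, chr2:180042465-180042714, minus strand: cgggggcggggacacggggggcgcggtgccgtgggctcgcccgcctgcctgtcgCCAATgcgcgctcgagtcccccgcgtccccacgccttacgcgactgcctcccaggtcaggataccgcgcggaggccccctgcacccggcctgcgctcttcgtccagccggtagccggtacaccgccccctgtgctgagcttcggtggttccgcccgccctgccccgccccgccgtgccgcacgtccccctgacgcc

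Among the 38 windows, 20 held CGGAAG on either strand (52.6%), against 13.6% of the 32851 windows of all genes and 24.8% of the 12343 windows of genes tested. It stood in windows of Psma6, Psmb3, Psmc1, Psmc6, Psmd1, Psmd2, Psmd4, Psmd8, Psmd11, Psmd12, Psmd14 and Psme3, all higher in 4T1. It also stood in those of the called name match Psmc3ip, of Psmb11 below the filter, and of Psma4, Psmc2, Psmd6, Psmd13 and Psme4, which did not pass. The other genes with a window lacked it, among them Psma1, Psma2, Psma5, Psmc5 and Psmd5, also higher in 4T1. Whether it goes with the difference between the lines was not tested. The Psmd2 window holds CGGAAG close to its end, the Psmd14 and Psme3 windows hold both motifs, and the Psma7 window holds CCAAT alone. CCAAT stood in 14 of the 38 (36.8%), close to its share over all windows (33.8%) and over windows of tested genes (35.5%). The antioxidant response element letters TGACNNNGC, which NRF1 and NRF2 bind, stood in 5 windows (13.2%), those of Psmb5, Psmb6, Psmc6, Psmd12 and Psmd9, against 10.2% of all windows and 11.9% of those of tested genes. GGGCGG, the GC box, stood in 55.3% of the windows against 57.6% for tested genes. The interferon-response letters GAAANNGAA stood in 3 windows (7.89%), those of Psmb3, Psmd4 and Psmd9, against 6.04% of those of tested genes. Strings that share the ETS core followed it, with GGAAGT in 44.7% of the windows against 22.9% for tested genes and ACTTCCGG in 15.8% against 5.96%, and they overlap CGGAAG and one another in part. CGGAAG was singled out after the shares of 12 motifs were seen. A match describes letters and no bound factor, and its absence says only that the letters are not in this window.

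The alpha ring forms the outer rings and the gate of the 20S core. Of its 7 genes, Psma2, Psma1, Psma6 and Psma5 were higher in 4T1, against 25.1% of all genes tested. Psma3, Psma4 and Psma7 did not pass, and the median log2 fold change of the 7 was 0.42. Psma2 had 6822, 5859 and 5843 normalised counts in 4T1, in the order of the replicate numbers used throughout, against 4094, 4596 and 3604 for 4TO7. The lines did not overlap, and Psma2 was 1.51-fold higher in 4T1 (log2 fold change 0.59 ± 0.14, SE; adjusted p = 0.00904). Psma1 had 7667, 6664 and 7062 in 4T1 and 4976, 6063 and 4366 in 4TO7 (0.48 ± 0.15; adjusted p = 0.0292). Psma6 had 8426, 7219.7 and 7109 in 4T1 and 5749, 6199 and 4705 in 4TO7 (0.46 ± 0.15; adjusted p = 0.0337). Psma5 had 4757, 3983 and 4172 in 4T1 and 3255, 3542 and 2879 in 4TO7 (0.42 ± 0.14; adjusted p = 0.0364). In these genes too every 4T1 library lay above every 4TO7 library, the nearest being 4TO7 replicate 2. Their 3 calls were nevertheless lost when any single 4T1 library, 4TO7 replicate 1 or 4TO7 replicate 3 was left out (adjusted p from 0.0538 to 0.142), and also under equal totals, quantile normalisation or limma without trend and robust moderation (0.0557 to 0.125). edgeR called neither Psma6 (0.0524) nor Psma5 (0.0591), and Psma5 was lost without a low-value filter (0.0596). Psma7 differed least in the ring, with 10287, 7562 and 7597 in 4T1 and 8824, 9990.1 and 6767 in 4TO7, overlapping (-0.00 ± 0.19; adjusted p = 0.986). Psma4 (0.10 ± 0.16) and Psma3 (0.32 ± 0.18) also overlapped, with adjusted p of 0.645 and 0.175. Without 4TO7 replicate 2, Psma3 passed at an adjusted p of 0.0259.

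The cutting sites of the standard core sit in 3 beta subunits, Psmb6 (beta 1, caspase-like), Psmb7 (beta 2, trypsin-like) and Psmb5 (beta 5, chymotrypsin-like and the main target of proteasome inhibitor drugs). Psmb7 alone passed, with 7226, 5713 and 5929 normalised counts in 4T1 and 3865, 4558 and 3071 in 4TO7. It was 1.64-fold higher in 4T1 without overlap (0.73 ± 0.18; adjusted p = 0.00986), and part of its exons overlaps Nek6 on the other strand. Psmb5 had 1975, 1525 and 1425 in 4T1 and 1090.0, 1369 and 748 in 4TO7. These values did not overlap either, but the gap between 4TO7 replicates 2 and 3 was wide, and Psmb5 fell just short of the threshold (0.65 ± 0.24; adjusted p = 0.0515). It passed without 4TO7 replicate 2 (adjusted p = 0.00846), with the replicate block (0.0204), with DESeq2 (0.0374) and without a low-value filter (0.0427). Psmb6 had 6011, 4771 and 4808 in 4T1 and 4981, 5157 and 3604 in 4TO7, overlapping (0.19 ± 0.18; adjusted p = 0.4). The 3 catalytic genes thus kept the same sign of fold change at different sizes. The difference between them was not tested.

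The other 4 beta subunits shape the ring without cutting. Psmb3 had 3870.2, 3189 and 2998 normalised counts in 4T1 and 2273, 2594 and 1228 in 4TO7, where replicate 3 was by far the lowest. Its call (0.78 ± 0.27; adjusted p = 0.0407) was lost without any one of the 4T1 libraries, 4TO7 replicate 1 or 4TO7 replicate 3 (0.0515 to 0.14), and also under equal totals, quantile normalisation, limma without trend and robust moderation, or edgeR (0.0545 to 0.0727). Psmb2 had 6538, 5463 and 5538 in 4T1 and 3867, 4232 and 3438 in 4TO7 and passed at 0.60 ± 0.14 (adjusted p = 0.00787), a call that stood under every alternative run. Psmb1 (0.32 ± 0.14; adjusted p = 0.0933) and Psmb4 (0.25 ± 0.16; adjusted p = 0.227) did not overlap between the lines and did not pass. Over the whole 20S core the median log2 fold change was 0.44. Of its 14 standard genes, 7 were higher in 4T1, against 25.1% of all genes tested. None was higher in 4TO7 by limma, by edgeR or by DESeq2, and 0 were at an unadjusted limma p under 0.05. The count of 7 higher in 4T1 was 3 under equal totals, under quantile normalisation, in limma without trend and robust moderation, and without any single library other than 4TO7 replicate 2. It was 4 in edgeR, against 23.4% of all genes, and 8 in DESeq2, against 25.5%. With the replicate block it was 8, and without 4TO7 replicate 2 it was 9, against 29.2%. A count of 3 in 14 is a smaller share than the 25.1% of all genes, but that 25.1% is from the main fit. The share of all genes under the settings that gave 3 was not computed, so these shares are not like for like.

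Genes of the 19S particle had larger fold changes than those of the core, a contrast that was not tested. All 17 of its genes had a positive log2 fold change under every alternative run, and the median in the main fit was 0.80. Of the 17, 13 passed as higher in 4T1, against 25.1% of all genes tested. The count of 13 was 10 without 4TO7 replicate 3, 11 without 4TO7 replicate 1, 17 without 4TO7 replicate 2, and 12 or 13 under the other alternatives. Its base carries 6 ATPases, Psmc1 to Psmc6, that pull the substrate into the core, and 4 of them passed. Psmc1 (Rpt2), whose tail opens the gate of the core, had 11823, 10498 and 9965 normalised counts in 4T1 and 4682, 5729.7 and 4069 in 4TO7. It was 2.23-fold higher in 4T1 (1.17 ± 0.16; adjusted p = 0.000512), with the lowest 4T1 library far above the highest 4TO7 library. Psmc3 (Rpt5) had 9808, 7121 and 7844 in 4T1 and 4254, 5378 and 3519 in 4TO7 (0.92 ± 0.19; adjusted p = 0.00472), and a stretch of its exons overlaps Slc39a13 on the other strand. Psmc5 (Rpt6) had 7146, 6008 and 5319 in 4T1 and 3145, 4523 and 2421 in 4TO7 (0.91 ± 0.23; adjusted p = 0.0119), a call lost without 4T1 replicate 1 (0.0536). Psmc6 (Rpt4) had 7751, 7953 and 8297 in 4T1 and 5664, 6477 and 5116 in 4TO7 (0.48 ± 0.13; adjusted p = 0.0166). It was the only ATPase of the 4 in which 4T1 replicate 1 was the lowest of its line, and its call was lost without 4T1 replicate 3, 4TO7 replicate 1 or 4TO7 replicate 3 (0.06 to 0.0766). Psmc2 (0.38 ± 0.18; adjusted p = 0.106) and Psmc4 (0.45 ± 0.23; adjusted p = 0.144) overlapped between the lines because of 4TO7 replicate 2, and without that library both passed (0.0133 and 0.0128).

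The rest of the base is made of the large scaffolds Psmd1 (Rpn2) and Psmd2 (Rpn1) and the ubiquitin receptor Psmd4 (Rpn10). Ubiquitin carriers dock on Psmd2. All 3 genes were higher in 4T1, against 25.1% of all genes tested. Psmd1 had the largest fold change of the 40 genes tested, with 17454, 15231 and 15819 normalised counts in 4T1 and 5749, 8579 and 5179.6 in 4TO7. The 4T1 libraries lay close together and all above the 4TO7 libraries, a 2.49-fold difference (1.35 ± 0.19; adjusted p = 0.000732). Its exons overlap those of Gm21972 on the same strand and of Htr2b on the other, so some of its reads could have been counted elsewhere. Psmd2, whose promoter is printed above, had 17409.8, 16588 and 16752 in 4T1 and 9061, 12138 and 8349 in 4TO7. Relative to its mean it varied least among the 4T1 libraries of all 40 genes, with 16917 ± 435 (SD, n = 3) there and 9849 ± 2014 (SD, n = 3) in 4TO7 (0.80 ± 0.16; adjusted p = 0.00378). Psmd4 had 8245, 7007 and 7017 in 4T1 and 4895, 5844 and 4169 in 4TO7 (0.59 ± 0.16; adjusted p = 0.0153), a call lost without 4TO7 replicate 1 (0.0511) or replicate 3 (0.0627).

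The lid holds the deubiquitinase Psmd14 (Rpn11), its partner Psmd7 (Rpn8) and scaffold subunits built around them. Of its 8 genes matched by the naming rule, 6 were higher in 4T1, against 25.1% of all genes tested. The median log2 fold change of the 8 was 0.81. Psmd7 had 10876, 8953 and 7912 normalised counts in 4T1 and 3992, 5776 and 3628 in 4TO7, a 2.07-fold difference (1.07 ± 0.20; adjusted p = 0.0031). Psmd3 (Rpn3) had 12179.6, 10455 and 9692 in 4T1 and 5084, 6433 and 4999 in 4TO7 (0.97 ± 0.15; adjusted p = 0.0012). Psmd14 had 8005, 7265 and 7336 in 4T1 and 3812, 5051 and 3096 in 4TO7, a 1.89-fold difference (0.95 ± 0.18; adjusted p = 0.00341). In each of these every 4T1 value lay well above every 4TO7 value, in the catalytic pair Psmd14 and Psmd7 and in the scaffold gene alike. Psmd11 (Rpn6), a clamp between lid and core, had 8625, 7749.8 and 7379 in 4T1 and 3906, 5590.3 and 3418 in 4TO7 (0.91 ± 0.19; adjusted p = 0.00499). Psmd12 (Rpn5) passed as well (0.72 ± 0.16; adjusted p = 0.00642). So did Psmd8 (Rpn12; 0.60 ± 0.16; adjusted p = 0.0137), whose call was lost without 4TO7 replicate 3 (0.055). Psmd6 (Rpn7; 0.33 ± 0.21; adjusted p = 0.227) and Psmd13 (Rpn9; 0.36 ± 0.22; adjusted p = 0.212) overlapped through 4TO7 replicate 2 and passed without it (0.0289 and 0.0214). Part of the Psmd13 exons lies opposite Sirt3.

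**Figure D2:**
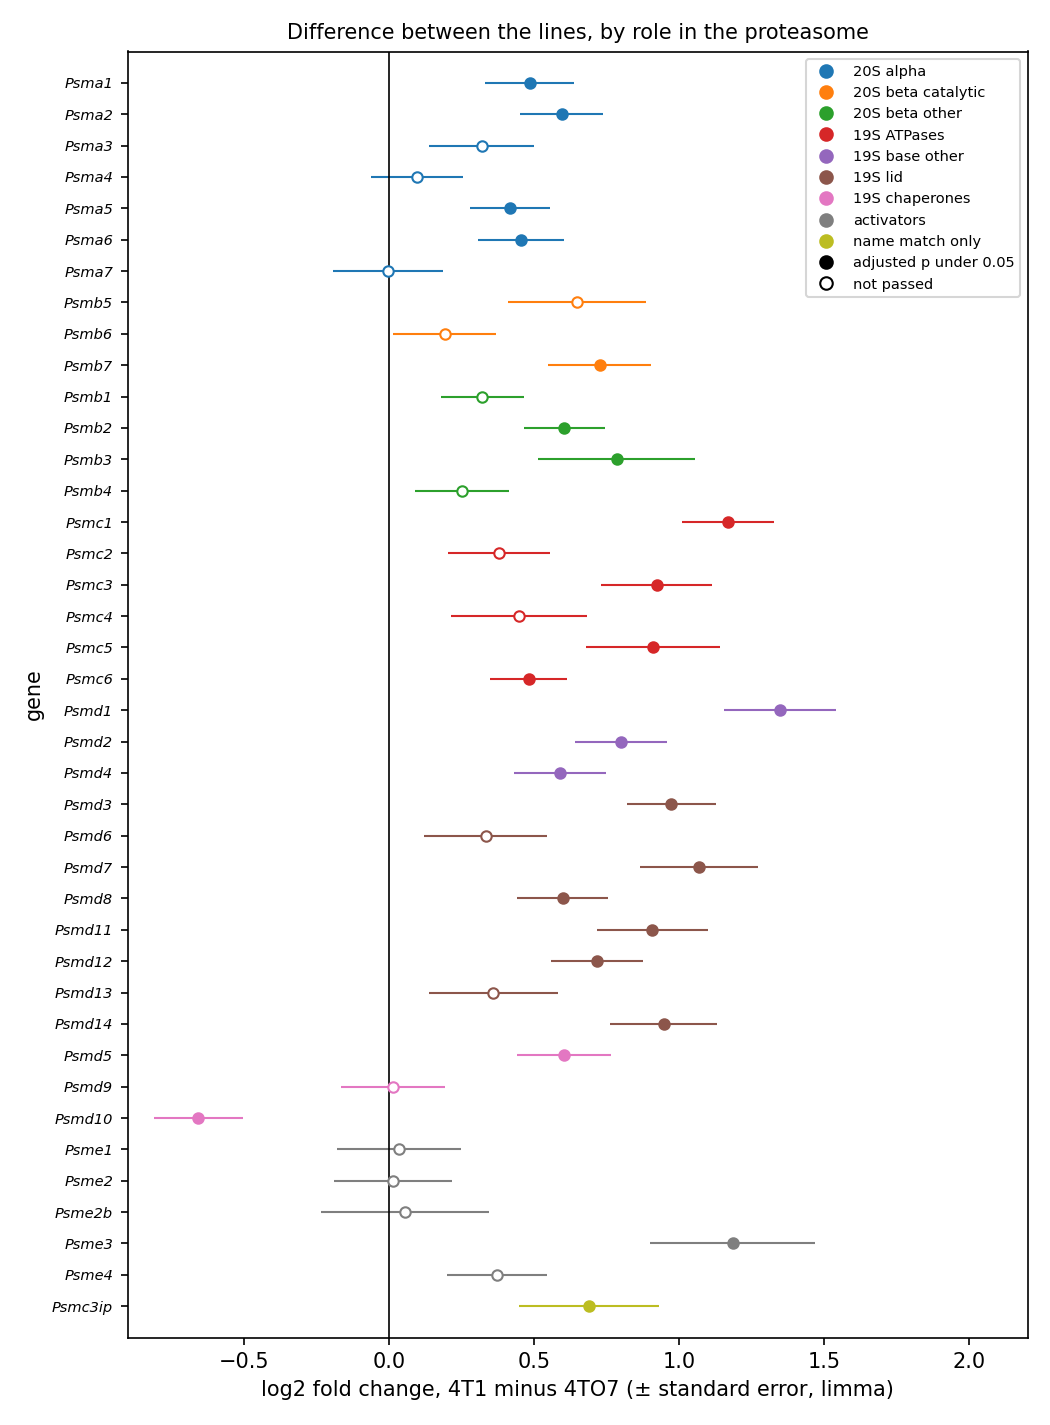
Points are log2 fold changes, 4T1 minus 4TO7, of the 40 genes tested, bars are limma standard errors, colors are roles and filled points have an adjusted p under 0.05. Genes of the 19S base and lid reach further right than those of the 20S core, from 0.33 to 1.35 against -0.00 to 0.78, and Psmd10 at -0.66 is the only filled point left of 0.

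Summing the genes of each particle shows the same in every library. The 14 core genes summed to 94624, 77492 and 78690.5 normalised counts in 4T1 and to 67417, 74137 and 54081 in 4TO7, a ratio of means of 1.28. The lines did not overlap, though 4TO7 replicate 2 came near 4T1 replicates 2 and 3. The 17 genes of the 19S particle summed to 162251, 140887 and 138394 in 4T1 and to 80554, 105351 and 69685 in 4TO7, a ratio of 1.73. Core and 19S particle together made up 0.691%, 0.565% and 0.576% of all normalised counts in 4T1 and 0.437%, 0.510% and 0.356% in 4TO7. The 19S sum over the 20S sum within a library does not depend on size factors. It was 1.71, 1.82 and 1.76 in 4T1 and 1.19, 1.42 and 1.29 in 4TO7, so the transcripts of the 2 particles stood in a different proportion in the 2 lines, with 4TO7 replicate 2 again nearest to 4T1. Psmd1 over Psma7, the genes with the largest and the smallest difference of the 2 particles, gave 1.70, 2.01 and 2.08 in 4T1 and 0.652, 0.859 and 0.765 in 4TO7, a pair chosen for that contrast. These sums weight genes by their reads and so lean on long and abundant transcripts, and no test was made on them.

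**Figure D3:**
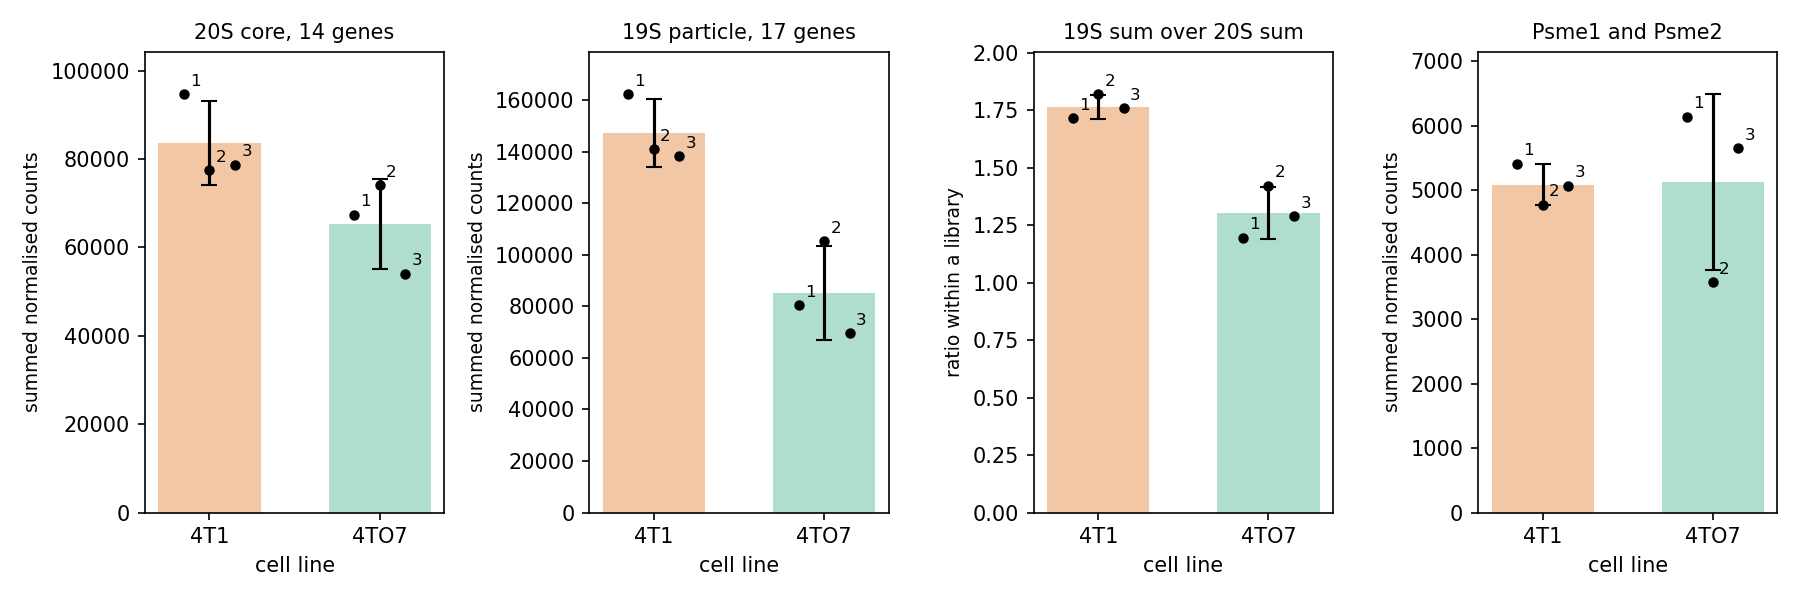
Bars are means and error bars SDs over 3 libraries of each line, with the libraries as numbered points: summed normalised counts of 20S core genes, of 19S particle genes, the ratio of these sums within a library, and Psme1 and Psme2 summed. The ratio runs from 1.71 to 1.82 in 4T1 and from 1.19 to 1.42 in 4TO7, while Psme1 and Psme2 overlap between the lines and are lowest in 4TO7 replicate 2.

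Dedicated chaperones build the base of the 19S particle, and their genes went in different directions. Psmd5 (S5b) had 4328, 3336 and 3689 normalised counts in 4T1 and 2549, 2813 and 2115 in 4TO7 and passed as higher in 4T1 (0.60 ± 0.16; adjusted p = 0.0149), a call lost without 4TO7 replicate 3 (0.0608). Psmd10 (gankyrin), also known as an oncoprotein that binds RB, had 951, 792 and 912 in 4T1 and 1506, 1228 and 1461 in 4TO7. Every 4TO7 library lay above every 4T1 library, a 1.58-fold higher level in 4TO7 (-0.66 ± 0.15; adjusted p = 0.00797), and this call stood under every alternative run. Psmd9 (p27) had a log2 fold change of 0.01 ± 0.18 (adjusted p = 0.954), and its exons overlap the opposite-strand gene Gm26745 over a long stretch.

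Among the activators, Psme3, which encodes PA28 gamma, a nuclear cap that works without ubiquitin, stood apart. It had 9439, 9476 and 6518 normalised counts in 4T1 and 3019, 5799.9 and 2839 in 4TO7, a 2.18-fold difference (1.18 ± 0.28; adjusted p = 0.00916). Both lines were uneven, with 4T1 replicate 3 below its partners and 4TO7 replicate 2 near that level, and still they did not overlap. Its call stood under every alternative run. Psme1 and Psme2, which encode the interferon-inducible cytosolic caps PA28 alpha and beta, did not pass. Psme1 had 3292, 2941 and 3154 in 4T1 and 3728, 2149.6 and 3551 in 4TO7 (0.03 ± 0.21; adjusted p = 0.905). Psme2 had 2121, 1835 and 1918 in 4T1 and 2414, 1427 and 2106 in 4TO7 (0.01 ± 0.20; adjusted p = 0.961). In both genes 4TO7 replicate 2 lay below every other library while replicates 1 and 3 lay at or above most of 4T1, and without replicate 2 the fold changes were -0.22 and -0.21, neither passing. Psme2b, a near-identical copy of Psme2 with 83.8 to 159 normalised counts, shared this order of libraries within 4TO7 (0.05 ± 0.29; adjusted p = 0.888). No source used here says how reads of the 2 copies were assigned. Psme4 (PA200), a large cap linked to histone breakdown, had a log2 fold change of 0.37 ± 0.17 (adjusted p = 0.104) and passed without 4TO7 replicate 2 (0.0199). Within a library, Psme1 over Psme3 was 0.349, 0.310 and 0.484 in 4T1 and 1.23, 0.371 and 1.25 in 4TO7, so the balance of the 2 kinds of PA28 transcript in 4TO7 replicate 2 lay within the range of 4T1.

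Both genes below the low-value filter belong to special tissues. Psma8, the spermatoproteasome alpha subunit of the testis, had 0 reads in every library, and Psmb11, the beta subunit of the thymus proteasome, had 1 read in 4T1 replicate 2 and 1 in 4TO7 replicate 1. Psmc3ip, the name match that is no subunit, had 823, 718 and 629 normalised counts in 4T1 and 356, 629.9 and 395 in 4TO7. It passed (0.69 ± 0.24; adjusted p = 0.0431) although 4TO7 replicate 2 reached the level of 4T1 replicate 3, and the call was lost without any single library other than that one (0.0586 to 0.151), and under equal totals, quantile normalisation, limma without trend and robust moderation, or edgeR (0.0566 to 0.0799).

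4TO7 replicate 2 departed from the other 4TO7 libraries in the direction of 4T1 for nearly all subunit genes. It was the highest 4TO7 library for 35 of the 40 genes, against 40.5% of all genes tested, between the others for Psmb1, and the lowest for Psmd10, Psme1, Psme2 and Psme2b, against 43.5%. Its log2 value exceeded the mean of replicates 1 and 3 by a median of 0.39 over the 40 genes, 0.31 over the core and 0.48 over the 19S particle, where it was the highest for all 17, while the median over all genes tested was -0.01. The largest such gap was 0.99 for Psme3. Psmd10, the gene higher in 4TO7, was lower in replicate 2 by -0.27 and so also lay toward 4T1 there. In 4T1, replicate 1 was the highest library for 37 of the 40 genes, against 36.5% of all genes tested. Leaving out 4TO7 replicate 2 raised the number of members higher in 4T1 from 23 to 30, with all 17 of the 19S particle among them, and over all genes tested the share became 29.2%, with 27.3% higher in 4TO7. Leaving out any other single library lowered the number. It was 14 without 4TO7 replicate 3, the lowest library for most subunits, and 16 without 4TO7 replicate 1. Without 4T1 replicates 1, 2 and 3 it was 17, 18 and 17. The median log2 fold change was 0.41 without 4TO7 replicate 3 and 0.51 without 4TO7 replicate 1, against 0.54 in the main fit. Shares of all genes in those fits were not computed. Other genes set replicate 2 apart as well: Krt18 had 15419, 8118 and 17067 and Pdgfra 6699.7, 1706 and 7452 in 4TO7, beside the interferon-response sums given above. Their part in these results was not tested.

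**Figure D4:**
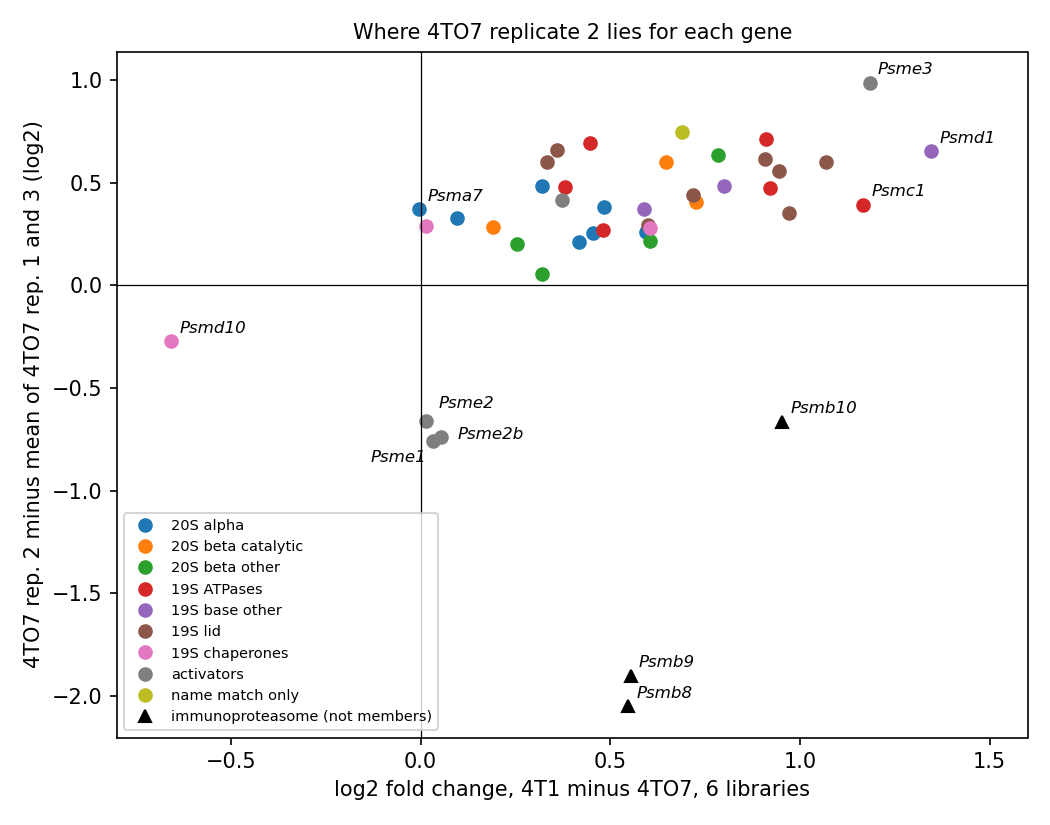
Each circle is 1 of the 40 genes, by its log2 fold change between the lines over all 6 libraries (x) and by 4TO7 replicate 2 minus the mean of 4TO7 replicates 1 and 3 in log2 (y); triangles are the 3 inducible catalytic subunits. Both axes use replicate 2, so no correlation is read from them; 35 genes lie where replicate 2 is the highest 4TO7 library, and Psmb8 and Psmb9 lie near -2.05 and -1.90.

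The inducible catalytic subunits, which the rule leaves out, differed from the standard core in where 4TO7 replicate 2 lay. Psmb8 (beta 5i) had 1381, 1032 and 1372 normalised counts in 4T1 and 1547, 331 and 1223 in 4TO7, and Psmb9 (beta 1i) had 119, 80.7 and 153 in 4T1 and 127, 31.4 and 113 in 4TO7. Neither passed (Psmb8 0.55 ± 0.51, adjusted p = 0.4; Psmb9 0.55 ± 0.52, adjusted p = 0.408), and without 4TO7 replicate 2 the fold changes were -0.14 and -0.08. Psmb10 (beta 2i) had 1095, 843 and 877 in 4T1 and 566, 353 and 555 in 4TO7 and was 1.91-fold higher in 4T1 (0.95 ± 0.22; adjusted p = 0.00834). Replicate 2 was the lowest 4TO7 library for all 3. Set against its standard counterpart within a library, Psmb8 over Psmb5 was 0.699, 0.677 and 0.963 in 4T1 and 1.42, 0.242 and 1.63 in 4TO7. These ratios of counts carry the genes' lengths, so only libraries can be compared by them, and replicate 2 had the lowest of the 6. Exons of Psmb9 overlap those of Tap1 on the other strand.

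Other genes of the pathway were taken from lists of 36 partners, of which 35 were matched and tested. Of these, 9 were higher in 4T1, against 25.1% of all genes, and 3 were higher in 4TO7, against 23.9%. The other 23 did not pass, and the median log2 fold change was 0.12. The 9 became 5 without 4TO7 replicate 1 or replicate 3, and the 3 became 5 under equal totals or quantile normalisation. The largest change was in the shuttle proteins that carry ubiquitinated substrates to the 19S particle. Ubqln1 (ubiquilin 1) had 11452, 12356 and 11771 normalised counts in 4T1 and 2247, 2528 and 2083 in 4TO7, 5.19-fold higher in 4T1 (2.38 ± 0.13; adjusted p = 2.2e-06). Its relative Ubqln2 went the other way, with 1352, 1602 and 1524 in 4T1 and 2955, 3826 and 3165 in 4TO7 (-1.15 ± 0.15; adjusted p = 0.000418). Ubqln1 over Ubqln2 was thus 8.47, 7.71 and 7.72 in 4T1 and 0.761, 0.661 and 0.658 in 4TO7. The shuttle genes Rad23b (0.08 ± 0.14; adjusted p = 0.673) and Ubqln4 (0.25 ± 0.18; adjusted p = 0.27) did not pass.

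A pair of 19S subunits carry names outside the rule. Adrm1 (the ubiquitin receptor Rpn13) was 1.65-fold higher in 4T1 (0.72 ± 0.20; adjusted p = 0.0173), a call lost without 4T1 replicate 1, 4TO7 replicate 1 or 4TO7 replicate 3 (0.0557 to 0.0634). Sem1, listed under its older symbol Shfm1, had a log2 fold change of 0.27 ± 0.12 (adjusted p = 0.1). The deubiquitinase Uchl5, which docks on Adrm1, was 1.56-fold higher in 4T1 (0.68 ± 0.22; adjusted p = 0.0311), a call lost without 4T1 replicate 1 or 2 or 4TO7 replicate 1 or 3 (0.0898 to 0.112), under equal totals (0.0553) or in limma without trend and robust moderation (0.0561). Usp14, the other docked deubiquitinase, did not pass (0.40 ± 0.15; adjusted p = 0.0587). Txnl1, a thioredoxin-like protein bound to the 19S particle, was 1.57-fold higher in 4T1 (0.65 ± 0.13; adjusted p = 0.00374). Psmf1, the inhibitor PI31, was 1.66-fold higher in 4TO7, with 1219, 1134 and 988 normalised counts in 4T1 and 1832, 1885 and 1835 in 4TO7 (-0.74 ± 0.14; adjusted p = 0.00285). The 5 chaperones that assemble the 20S core, Psmg1 to Psmg4 and Pomp, had log2 fold changes from -0.07 to 0.23, and 0 passed in limma, edgeR or DESeq2, with 0 at an unadjusted limma p under 0.05.

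Of 5 genes of the NRF1 pathway, 1 passed, in the direction of 4TO7, against 23.9% of all genes tested. Nfe2l1 had 12624, 12486 and 14826 normalised counts in 4T1 and 14213, 11344 and 13367 in 4TO7 (0.04 ± 0.14; adjusted p = 0.835), and its relative Nfe2l2 had 4799, 4762 and 5155 in 4T1 and 5567, 5501 and 5194 in 4TO7 (-0.14 ± 0.12; adjusted p = 0.338). NRF1 is known to be controlled by processing of the protein. Among the enzymes of that processing, Ngly1, the glycanase that edits NRF1, was 2.85-fold higher in 4TO7, with 254, 408 and 352 in 4T1 and 957, 954 and 979 in 4TO7 (-1.54 ± 0.20; adjusted p = 0.00044). Ddi2, the protease that cuts it, had a log2 fold change of 0.02 ± 0.18 (adjusted p = 0.933), and Vcp, which extracts it from the membrane, one of 0.20 ± 0.15 (adjusted p = 0.293). Among ubiquitin genes, the ribosomal fusion Rps27a (1.36-fold; 0.44 ± 0.12; adjusted p = 0.0172) and the activating enzyme Uba1 (1.33-fold; 0.42 ± 0.13; adjusted p = 0.0261) were higher in 4T1. The call of Rps27a was lost without 4T1 replicate 3, 4TO7 replicate 1 or 4TO7 replicate 3 (0.0527 to 0.0735), and that of Uba1 without any single library other than 4TO7 replicate 2 (0.0513 to 0.11) or in limma without trend and robust moderation (0.0556). Both calls were also lost under equal totals (0.0699 for Rps27a and 0.0917 for Uba1) and under quantile normalisation (0.14 and 0.152), where both log2 fold changes were 0.23. The polyubiquitin gene Ubb (-0.21 ± 0.12; adjusted p = 0.189) did not pass.

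Levels of different subunits were compared per kilobase of the principal GENCODE transcript, since counts grow with length. In 4T1 the 14 core genes ran from 1729.7 normalised counts per kilobase for Psma3 to 9280.1 for Psma7, and in 4TO7 from 1189 for Psmb5 to 9329 for Psma7. Psmb5 (1826 in 4T1) stood below the other catalytic genes Psmb6 (6512) and Psmb7 (5422) on this scale. With the length of all exons together, which counts every annotated exon, Psmb5 (1826) and Psmb7 (1838) were level, so this order depends on the transcript taken. In the 19S particle, Psmc1 had 6764 per kilobase in 4T1 and 3034 in 4TO7, and Psmd1 5195 and 2089.6. The chaperone genes lay lower, with Psmd9 at 589.6 and Psmd10 at 619 per kilobase in 4T1, and Psmb8 at 775.

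The genes of the set are scattered over the genome, and nearly all had a fold change above the median of the genes beside them. On chromosome 11, which holds 10 of the 40, 7 were higher in 4T1, against 30.3% of the 1127 other genes tested there. The median log2 fold change was 0.75 over these 10 and 0.19 over the others. On chromosome 2 it was 0.73 over 5 genes of the set against -0.03 over 1124 others. On chromosome 7 it was 0.47 over 4 against -0.30 over 1101. Psmd7 lies on chromosome 8, where 49.1% of the other genes were higher in 4T1, and its neighbours had a median of 0.57, the highest around any member, against 1.07 for Psmd7. Compared with the median of up to 10 tested genes on either side, 38 of the 40 genes lay above, by a median of 0.61. Psmd10 on chromosome X and Psme2b were the 2 exceptions. The neighbours' medians had a median of 0.01, and 38 of the 40 genes had a positive fold change, so the 2 counts are not independent. How many of all genes tested lie above their neighbours was not computed. Psma7 and Psmb4, though their own fold changes were -0.00 and 0.25, lay among neighbours with medians of -0.62 and -0.65.

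**Figure D5:**
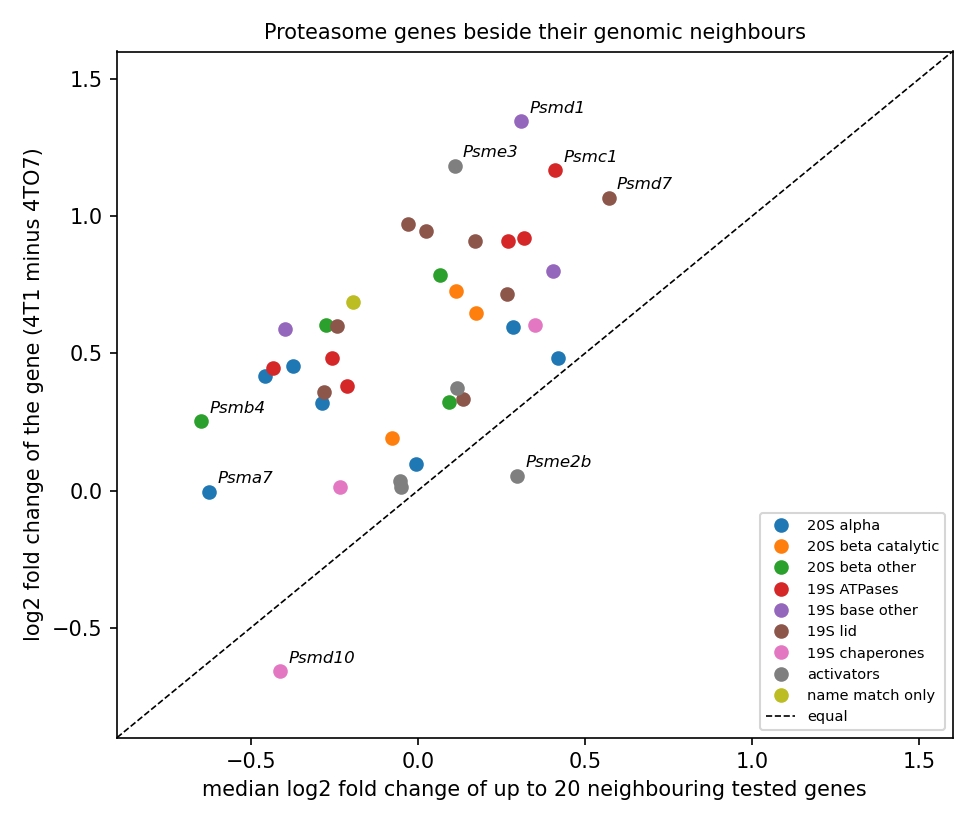
Each point is 1 of the 40 genes, with the median log2 fold change (4T1 minus 4TO7) of up to 20 neighbouring tested genes on the x axis and its own on the y axis; the dashed line marks equality. All but Psmd10 and Psme2b lie above the line, and the neighbours' medians run from -0.65 to 0.57.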

How the data were processed

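Total RNA of 4T1 and 4TO7 cells was sequenced in 3 libraries per line. Per the submitters' processing notes, STAR 2.5, featureCounts 1.5, DESeq2 and the build GRCm38 were used; the annotation release and the use of strand are not given in the sources used here. Per the file headers, the authors deposited for each library a signal, the gene's read count scaled by library size. The same deposited table holds the authors' own comparison: log2 fold changes, standard errors, a test score, and p-values before and after adjustment. All nonzero values (100% in each library, within 1e-06) were whole multiples of a step, so reads were recovered, with size factors of 0.954 to 1.07. Precision is limited by 3 libraries per line.

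Values were tested as log2(value + 1) with limma 3.58.1 in R 4.3.3 (group alone, intensity trend, robust, two-sided), over genes at 10 or more in at least 3 libraries, adjusted by Benjamini-Hochberg at 0.05; on this scale changes of low genes are understated. The fit was tested on simulated data. edgeR 4.0.16 and DESeq2 1.42.0 on recovered reads, other pseudocounts, filters and scalings, a replicate block and leaving out each library were alternatives. A fold without log2 is the ratio of line means. Members, gene lists and tests were chosen with earlier results of these data known. The naming rule gives library values for the catalytic subunits, the 4 most changed genes that passed in each role, Psme1, Psme2 and genes below the filter. Of each partner list it takes up to 3 that passed, and always Psmb8, Psmb9, Psmb10, Nfe2l1 and Nfe2l2; other genes were named after their values were seen. A few genes that the rule takes are not reported here. Lengths, overlaps and neighbours come from GENCODE vM21. Of 36 partners, Paaf1 was not used here, and Sem1 and Ecpas were matched through RefSeq synonyms. The 12 motifs searched on both strands were TGACNNNGC and the longer antioxidant element TGACTCAGC, the NF-Y box CCAAT, the interferon-response core GAAANNGAA, the GC box GGGCGG, the cyclic AMP element TGACGTCA, the E-box CACGTG, the string CGCAGGCGC, the ETS core CGGAAG, its neighbour GGAAGT, the longer ETS string ACTTCCGG and the string AACTTCCG. The last 4 can overlap one another, as can the first pair.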

Additional observations from a re-analysis of the deposited data

How the results depend on the processing

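Of the 40 genes tested, Psmc3ip included, 23 were higher in 4T1 with pseudocounts of 0.5 and 10 and with both other filters. The number was 18 under equal totals, quantile normalisation and limma without trend and robust moderation. It was 19 in edgeR, 24 in DESeq2, and 14 to 30 when 1 library was left out. Psmd10 stayed the only one higher in 4TO7 in all of these. Of the 24 called, 14 passed under every alternative, and 9 of the 16 not called passed under none. Over the core alone the count moved between 3 and 9. Partner genes higher in 4T1 numbered 5 to 12 with 1 library left out, and those higher in 4TO7 numbered 5 under equal totals and 5 under quantile normalisation; the cause was not tested. With the replicate block 24 of these genes were higher in 4T1, Psmb5 being the one added. The labels tie same-numbered libraries by a number only. Deviations of same-numbered libraries correlated at -0.01, 0.27 and 0.33 for replicates 1 to 3. In both lines, replicates 2 and 3 correlated best with their own number. Replicate 1 of 4T1 did so with 4TO7 replicate 2 (0.11), and replicate 1 of 4TO7 with 4T1 replicate 3 (0.27). Whether same-numbered libraries shared a batch was not tested.

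No called value changed sign. Psmb8 and Psmb9, at 0.55 each over all libraries, turned without 4TO7 replicate 2, and the other turns were of values between -0.00 and 0.10. Under equal totals the log2 fold change was -0.033 for Psma4, -0.11 for Psmd9, -0.095 for Psme1, -0.11 for Psme2, -0.073 for Psme2b and -0.090 for Nfe2l1. Quantile normalisation gave -0.032 for Psma4, -0.052 for Psmd9, -0.059 for Psme1, -0.078 for Psme2 and -0.12 for Nfe2l1. edgeR gave -0.017 for Psmd9, -0.041 for Psme1, -0.052 for Psme2 and -0.014 for Psme2b, and DESeq2 gave -0.025 for Psme1 and -0.036 for Psme2. Leaving out 1 library gave -0.012 to 0.20 for Psma4, -0.16 to 0.12 for Psma7, -0.13 to 0.11 for Psmd9, -0.22 to 0.18 for Psme1, -0.21 to 0.17 for Psme2, -0.19 to 0.27 for Psme2b, -0.14 to 0.97 for Psmb8, -0.080 to 0.91 for Psmb9 and -0.055 to 0.11 for Nfe2l1. The cause of these turns was not tested.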
